A study of Mus musculus with 5 samples.

Results

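Axon guidance ligands and receptors were examined as 70 genes among the 47729 of the deposited count table, chosen by symbol: the semaphorins of classes 3 to 7, plexins, neuropilins, ephrins, Eph receptors, Slits, Robos, netrins, netrin-G proteins, Unc5 receptors and Dcc. The symbol rule uses no measured value. The 5 samples are of right brain hemisphere from male mice of the inbred strain C57BL/6 at 5 months of age, with 1 mRNA library each. The labels name no mutation and no treatment, so all samples form 1 group and the comparisons are of genes within a brain and of the brains with each other. They give no identity of the mouse behind each sample. The samples are called animals 1 to 5 here, in accession order, as a name only, and the p-values rest on sample-to-sample spread that could be technical.

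Guidance cues are secreted or membrane-bound proteins that attract or repel growing axons through receptors on the growth cone. Semaphorins act through plexins, the secreted class 3 members mostly with a neuropilin as coreceptor. Ephrins bind Eph receptor tyrosine kinases, Slits bind Robo receptors, and netrins bind Dcc and the Unc5 receptors. In the adult brain many of these genes stay active in synapses, glia and blood vessels.

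Library totals lay between 13184234 and 15570064 counts. Levels are given in RPKM (reads scaled by gene length and by library total), computed here from the deposited counts. Each ± gives an SD (n = 5 samples). General neuron markers had a median of 144 RPKM, those of mature oligodendrocytes 113, of astrocytes 72.8, of microglia 17.7, of endothelial cells 6.73 and of choroid plexus 2.61. The choroid plexus markers were uneven, with Ttr at 480 RPKM and the others at 1.84 to 6.14, and summed to 464.4 to 510.5. Of 6 cerebellar markers, Gabra6, Pcp2 and Cbln3 had means of 0.342, 0.279 and 0.277 RPKM. Their ranges over the samples were 0 to 1.65, 0.0735 to 0.878 and 0.0596 to 0.993. Calb1, Zic1 and Cbln1 had means of 28.5, 9.68 and 9.38. The sum of the 6 markers was lowest in animal 5 (43.8 RPKM) and highest in animal 4 (57.4). Genes of liver, muscle and pituitary summed to 0.608 to 10.1 RPKM. In a whole hemisphere, fewer cells of a type and less RNA per cell cannot be told apart.

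Most of these genes were detected in the adult hemisphere. A mean of at least 1 RPKM was reached by 66 of the 70 genes (94.3%), against 12068 of 21697 protein-coding genes in the same table (55.6%). The median of the 70 genes was 6.52 RPKM, while the median over all protein-coding genes was 1.81. Over protein-coding genes of at least 1 RPKM it was 7.90. A mean of at least 10 RPKM was reached by 22.9% of the 70 genes and 23.3% of protein-coding genes. Together the genes took 0.400% ± 0.00511 of all counts. Their levels were spread over 292-fold, from 56.1 RPKM for the semaphorin gene Sema7a to 0.192 for the ephrin gene Efna4. Only 6 genes passed 20 RPKM (Sema7a, Efnb3, Ephb6, Sema6b, Epha4 and Unc5a), and 13 genes made up 50% of the summed level. At the lower end, Sema3d (1.02 RPKM) was the last gene above 1 and Ntn5 (0.469) the first below it.

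**Figure D1:**
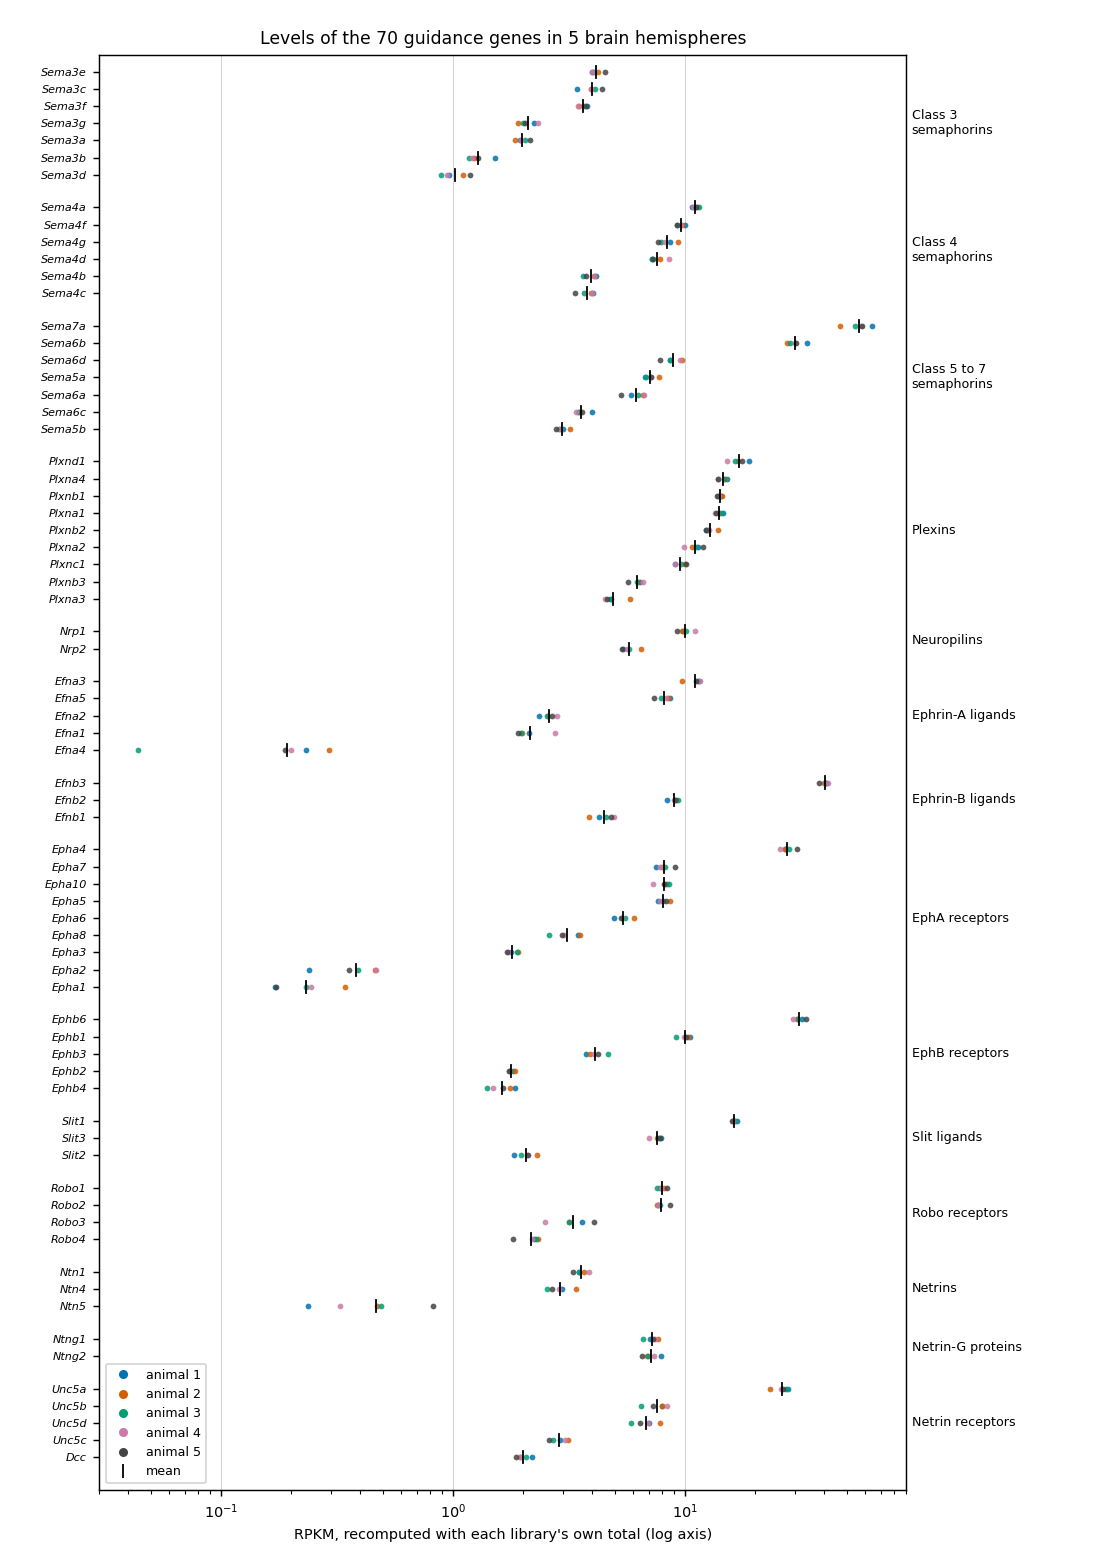
RPKM (log axis) of each of the 70 genes in the 5 animals (coloured points) with the mean (black tick), grouped by family and ordered by mean within it. Points of a gene lie close together next to the distances between genes, apart from the 4 genes below 1 RPKM, and Sema7a stands highest at 56.1 RPKM.

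One group of neighbours on the chromosome held both a highly and a barely detected gene. Efna1, Efna3 and Efna4, which encode ephrin-A ligands tethered to the membrane by a lipid anchor, follow each other on GRCm38 chromosome 3 (89271733 to 89281142, 89313899 to 89322965 and 89333390 to 89338028), with no other protein-coding gene between Efna1 and Efna3 or between Efna3 and Efna4. Efna3 stood at 11.4, 9.74, 11.6, 11.7 and 11.2 RPKM in animals 1 to 5. Efna1 stood at 2.12, 1.98, 1.96, 2.77 and 1.91. Efna4 was covered by 5, 7, 1, 5 and 4 reads, or 0.234, 0.294, 0.0440, 0.201 and 0.190 RPKM. The middle gene thus exceeded its neighbours by 5.17-fold and 57.8-fold, and the ranges of the 3 genes did not overlap in any animal. Part of the Efna4 exons (10.5%) is shared with an antisense gene of 21 counts, and without a stated strand setting the reads of both cannot be told apart. Antisense genes also overlap Efna3 and, elsewhere in the set, Plxna1, but with 65 and 73 counts against 1925 and 9031.

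The promoters of these neighbours are shown because the genes lie side by side with unlike levels, and that of Sema7a because it is the most abundant gene of the set. They span 250 bases before to 50 after the RefSeq start on GRCm38.p6, with CpG dinucleotides in capitals, and lie at chr3:89280902-89281201 (Efna1, minus strand), chr3:89322890-89323189 (Efna3, minus strand), chr3:89337979-89338278 (Efna4, minus strand) and chr9:57939862-57940161 (Sema7a, plus strand).
Efna1: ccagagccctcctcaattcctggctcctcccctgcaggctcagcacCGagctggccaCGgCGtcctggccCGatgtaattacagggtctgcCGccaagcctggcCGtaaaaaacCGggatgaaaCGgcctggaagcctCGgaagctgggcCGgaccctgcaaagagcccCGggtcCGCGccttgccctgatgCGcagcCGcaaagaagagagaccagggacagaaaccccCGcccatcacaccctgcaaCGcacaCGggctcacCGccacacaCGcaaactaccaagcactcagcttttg
Efna3: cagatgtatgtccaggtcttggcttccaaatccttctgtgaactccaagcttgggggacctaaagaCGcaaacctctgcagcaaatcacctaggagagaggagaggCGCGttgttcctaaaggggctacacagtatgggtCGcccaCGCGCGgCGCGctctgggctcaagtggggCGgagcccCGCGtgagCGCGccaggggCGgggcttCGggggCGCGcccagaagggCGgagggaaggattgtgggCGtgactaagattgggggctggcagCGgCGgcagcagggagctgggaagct
Efna4: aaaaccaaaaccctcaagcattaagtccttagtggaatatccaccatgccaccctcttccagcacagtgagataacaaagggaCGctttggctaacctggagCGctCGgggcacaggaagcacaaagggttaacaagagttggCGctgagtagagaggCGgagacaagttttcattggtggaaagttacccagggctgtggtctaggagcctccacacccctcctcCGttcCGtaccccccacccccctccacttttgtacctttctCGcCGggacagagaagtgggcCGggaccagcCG
Sema7a: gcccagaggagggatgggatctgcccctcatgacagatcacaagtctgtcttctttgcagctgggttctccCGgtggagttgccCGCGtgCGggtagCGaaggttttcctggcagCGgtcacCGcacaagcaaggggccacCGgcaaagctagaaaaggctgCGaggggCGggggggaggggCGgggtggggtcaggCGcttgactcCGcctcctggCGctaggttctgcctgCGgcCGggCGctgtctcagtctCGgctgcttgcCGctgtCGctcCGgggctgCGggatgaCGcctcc
The window at the outermost RefSeq start is shown for each gene. Efna3 has 22 CpG dinucleotides in it, Efna1 20, Efna4 11 and Sema7a 23. Of 20004 promoters of protein-coding genes, 67.4% have fewer than Efna3, 62.5% fewer than Efna1, 43.3% fewer than Efna4 and 69.8% fewer than Sema7a. RefSeq gives Efna3 a second start inside the gene, whose window has 34 CpG dinucleotides (89.5% have fewer), and Efna1 another with 20. Promoters were matched for 60 of the 70 genes (76 promoters, since some genes have several starts). At least 15 CpG dinucleotides were found in 61.8% of them, against 48.6% of all 20004. The hexamer TATAAA, searched on both strands, occurred in 2 of the 76 (2.63%) and in 12% of all. These are descriptions of the window and were not related to the levels by a test.

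Among the semaphorins, the summed level was highest for classes 5 to 7 (115 RPKM), then class 4 (44.4), and lowest for the secreted class 3 (18.2). Single genes did not all follow this order. The membrane-bound Sema5b, Sema6c, Sema4c and Sema4b had lower means than the secreted Sema3e and Sema3c. Sema7a (ENSMUSG00000038264, chromosome 9, 57940112 to 57962865), which is anchored to the membrane by a lipid and signals through Plxnc1 and integrins, stood at 63.9, 46.5, 54.2, 57.8 and 58.3 RPKM in animals 1 to 5. Sema6b (ENSMUSG00000001227, chromosome 17, 56123085 to 56140343), a transmembrane ligand of A-type plexins, stood at 33.6, 27.7, 28.3, 29.9 and 30.1. Animal 1 was highest and animal 2 lowest for both genes, and their ranges did not overlap. Sema6d followed at 8.68, 9.71, 8.66, 9.58 and 7.85 RPKM and Sema6a at 5.88, 6.58, 6.31, 6.68 and 5.33. In both of these transmembrane genes animal 5 was lowest, and Sema6d was the higher one in every animal. Sema5a and Sema5b, which carry thrombospondin repeats, had means of 7.12 ± 0.393 and 2.96 ± 0.160, and Sema6c of 3.59 ± 0.226. Sema7a alone made 48.9% of the summed level of classes 5 to 7, which was 115 ± 7.75 RPKM.

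Class 4 semaphorins were more even. Sema4a, known for roles in immune cells and the retina, stood at 10.7, 11.3, 11.5, 10.9 and 11.1 RPKM. Sema4f had 10, 9.78, 9.30, 9.66 and 9.30 RPKM. Sema4g had 8.62, 9.38, 7.86, 8.24 and 7.67 RPKM. The ligand of Plxnb1, Sema4d, stood at 7.21, 7.83, 7.26, 8.53 and 7.29 RPKM, highest in animal 4 and below Sema4a in all animals. Sema4b (3.93 ± 0.225) and Sema4c (3.80 ± 0.286) came last, and their ranges overlapped. Animal 4 also had the highest mean log2 deviation of the mature oligodendrocyte markers (0.18, against -0.077 to -0.0047 in the others; 6 of 6 genes at 1 RPKM or more, summing to 854 to 1044 RPKM). The part of these cells, which are known to express Sema4d, in its level was not tested.

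All 7 secreted class 3 genes lay between 1.02 and 4.16 RPKM. Sema3e, which can bind Plxnd1 without a neuropilin, had 3.97, 4.25, 4.05, 3.98 and 4.54 RPKM. Sema3c had 3.44, 3.96, 4.12, 3.95 and 4.39 RPKM. Sema3f, which signals through Nrp2, had 3.80, 3.49, 3.69, 3.47 and 3.75 RPKM. Sema3c overlapped both others, while Sema3e exceeded Sema3f in every animal. Sema3a, the classical collapsin that repels axons through Nrp1, stood at 1.94, 1.85, 2.06, 1.98 and 2.15 RPKM, below Sema3f in every animal. Sema3g (2.11 ± 0.168), Sema3b (1.29 ± 0.135) and Sema3d (1.02 ± 0.121) completed the class. Sema3a and Sema3e lie 422710 bases apart on chromosome 5, and Sema3b and Sema3f 72270 bases apart on chromosome 9.

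Plexins, the semaphorin receptors, were alike in level, with 3.48-fold between the highest and the lowest of 9 genes. Plxnd1 (ENSMUSG00000030123, chromosome 6, 115954811 to 115995005), a receptor known from endothelial cells and neurons, stood at 19, 17.0, 16.5, 15.2 and 17.6 RPKM. Plxna4 had 15.2, 14.96, 14.7, 13.9 and 13.97 RPKM. Plxnb1 had 14.4, 14.5, 13.96, 14.01 and 13.8 RPKM. Plxna1 followed with 14.6, 14.1, 14.3, 13.5 and 13.6 RPKM. The range of Plxnd1 lay above those of Plxnb1 and Plxna1 and overlapped that of Plxna4, although Plxnd1 was the higher of these in every animal. Plxna4, Plxnb1 and Plxna1 overlapped each other. Plxnb2 stood at 12.4, 13.9, 12.7, 12.7 and 12.3 RPKM. Plxna2 stood at 11.4, 10.8, 11.2, 9.92 and 12 RPKM, and Plxnc1, the receptor of Sema7a, at 9.07, 10.04, 9.598, 9.05 and 10.1. Plxnb3 had a mean of 6.25 ± 0.337. Plxna3, on the X chromosome, had 4.80, 5.82, 4.78, 4.51 and 4.63 RPKM, with animal 2 highest. Of the neuropilins, Nrp1 stood at 9.79, 9.74, 10.2, 11.0 and 9.22 RPKM and Nrp2 at 5.42, 6.47, 5.78, 5.65 and 5.39, so that their ranges did not overlap. With the length of all annotated exons in place of the length recovered from the tables, Nrp1 had 6.03 RPKM and its difference from Nrp2 no longer had 1 sign (log2 ratio 0.070 ± 0.13, exact sign-flip p = 0.375).

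Efnb3 and Ephb6 made most of the ephrin-B and EphB sums. Epha4 made 44.0% of the EphA sum and Efna3 46.0% of the ephrin-A sum. Efnb3 (ENSMUSG00000003934, chromosome 11, 69554092 to 69560205), a transmembrane ephrin known as a midline barrier for corticospinal axons, stood at 40.7, 39.9, 40.5, 41.6 and 37.8 RPKM. Efnb2, which also marks arteries, had 8.36, 9.13, 9.40, 8.96 and 9.07 RPKM, and the X-linked Efnb1 4.26, 3.85, 4.57, 4.97 and 4.81. These 3 ranges were separate, and Efnb3 made 74.8% of the summed ephrin-B level. Among the ephrin-A genes, Efna5 stood at 8.65, 8.46, 7.91, 8.31 and 7.34 RPKM, below Efna3 in every animal, and Efna2 at 2.59 ± 0.167.

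Epha4 (ENSMUSG00000026235, chromosome 1, 77367185 to 77515088), a receptor that binds both ephrin classes, led the EphA receptors with 27.0, 27.1, 28.1, 25.9 and 30.5 RPKM. Epha7 had 7.52, 8.001, 8.20, 7.79 and 9.06 RPKM. Epha10, which lacks kinase activity, had 8.40, 8.24, 8.51, 7.28 and 8.14 RPKM. Epha5 had 7.64, 8.64, 8.04, 7.82 and 8.27 RPKM. The means of these 3 receptors differed by less than their SDs, whereas Epha4 exceeded each of them in all animals. Epha6 (5.43 ± 0.393), Epha8 (3.12 ± 0.388) and Epha3 (1.80 ± 0.0918) followed with separate ranges. Epha2 (0.383 ± 0.0926) and Epha1 (0.233 ± 0.0696), known mainly from epithelia, were close to the limit of detection, with 129 and 66 reads over all libraries. Exons of Epha1 overlap those of Zyx on the opposite strand, a gene with 3144 counts, so even this low level is uncertain.

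Ephb6 (ENSMUSG00000029869, chromosome 6, 41605482 to 41620509), a receptor without kinase activity, was the highest of all Eph genes at 32.1, 30.4, 30.8, 29.3 and 33.2 RPKM. It made 64.0% of the summed EphB level. Ephb1 had 10.5, 10.3, 9.18, 9.92 and 10.1 RPKM. Ephb3 had 3.74, 3.91, 4.67, 4.05 and 4.25 RPKM. Ephb2, a receptor that interacts with NMDA receptors at synapses, stood at 1.82, 1.86, 1.76, 1.74 and 1.74 RPKM, and its range overlapped that of Ephb4 (1.64 ± 0.183), the receptor of venous endothelium.

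Slit1 (ENSMUSG00000025020, chromosome 19, 41600257 to 41743665), a secreted repellent made by neurons, stood at 16.9, 16.2, 16.4, 16.1 and 16.03 RPKM. Slit3 had 7.92, 7.58, 7.75, 7.01 and 7.81 RPKM, and Slit2 1.84, 2.32, 1.97, 2.09 and 2.10. In RPKM the order of the Slit genes was the same in every animal, with no overlap. The place of Slit2 below Slit3 rests on length (25434 against 6067 bases). In total reads Slit2 lay above Slit3 (3747 against 3282). Their receptors Robo1 (7.82, 8.13, 7.62, 7.86 and 8.38 RPKM) and Robo2 (7.70, 7.63, 7.80, 7.70 and 8.62 RPKM) could not be separated. Their order rests on length, since with all annotated exons Robo1 had 3.65 RPKM and lay below Robo2. Robo3, a receptor known from commissural axons, had 3.62, 3.17, 3.19, 2.49 and 4.08 RPKM. Robo4, a receptor of endothelial cells whose gene ends 553 bases from that of Robo3 on chromosome 9, had a mean of 2.17 ± 0.206.

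Summed over genes, the receptors of netrins exceeded their ligands, but Dcc lay below Ntn1 and Ntn4, and Unc5c below Ntn1, in every animal. Ntn1, the founding netrin, stood at 3.49, 3.69, 3.51, 3.87 and 3.29 RPKM. Ntn4, a component of basement membranes, stood at 2.96, 3.41, 2.56, 2.87 and 2.68 RPKM. Ntn5 had 5, 11, 11, 8 and 17 reads, and its exons overlap those of Sec1 on the opposite strand (105 counts). Unc5a (ENSMUSG00000025876, chromosome 13, 54949411 to 55006018), a receptor that mediates repulsion, reached 28.0, 23.4, 27.3, 25.9 and 26.6 RPKM and made 57.6% of the receptor sum. Unc5b had 7.99, 7.95, 6.51, 8.38 and 7.28 RPKM. Unc5d had 6.99, 7.81, 5.87, 6.91 and 6.39 RPKM. Unc5c had 2.90, 3.12, 2.70, 3.05 and 2.59 RPKM, and Dcc, the receptor for attraction, 2.21, 1.96, 2.06, 1.96 and 1.87. Unc5a was thus separate from all other netrin receptors, while Dcc was the lowest of them in every animal. The netrin-G proteins, lipid-anchored relatives that bind other partners at synapses, were alike in level: Ntng1 had 7.11, 7.68, 6.64, 7.44 and 7.32 RPKM and Ntng2 7.88, 6.90, 6.95, 7.34 and 6.56. Ntng2 shares 12.2% of its transcript sequence (words of 50 bases) with 6530402F18Rik, and is the only gene of the set above 3%. Exons of Ntng2 overlap those of 6530402F18Rik on the same strand over 558 bases. That gene had 928 counts against 2026 for Ntng2. The level of Ntng2, and with it the likeness to Ntng1, is therefore uncertain.

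Within the 14 families, 56 neighbours in the order of mean RPKM were compared as a description. The higher gene was higher in all animals for 44 of them, and the ranges of the 2 genes did not overlap for 34. These counts rest on the recovered lengths. With all annotated exons as length, for example, Sema5a lay below Sema6a (4.12 against 6.16 RPKM) and Sema4g below Sema4d (4.70 against 6.40).

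Summed over families, ligands and receptors were close to balance for some systems and far from it for others. Slit genes summed to 26.0 ± 0.522 RPKM and Robo genes to 21.3 ± 0.979, a log2 ratio of 0.29 ± 0.060 (0.68 with all annotated exons as length). Ephrin-B genes summed to 53.6 ± 1.45 and EphB genes to 48.7 ± 1.79 (log2 ratio 0.14 ± 0.090). In each of the 5 animals both ratios were above 0. Ephrin-A genes, in contrast, summed to 24.2 ± 1.09 RPKM against 63.0 ± 2.71 for EphA genes, which were 2.61-fold higher. Netrins summed to 6.93 ± 0.403 against 45.5 ± 1.61 for Dcc and the Unc5 genes, 6.57-fold higher. Class 3 semaphorins (18.2 ± 0.663) exceeded the neuropilins (15.7 ± 0.820) by a log2 ratio of 0.21 ± 0.12, or 0.63 with all annotated exons, and lay 2.45-fold below the A-type plexins (44.5 ± 1.61). These sums treat all members alike, and whether each member binds the family set against it was not considered. The Robo sum, for example, includes Robo3 (3.31 RPKM) and Robo4 (2.17 RPKM). Ligands also bind several receptors across these classes.

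**Figure D2:**
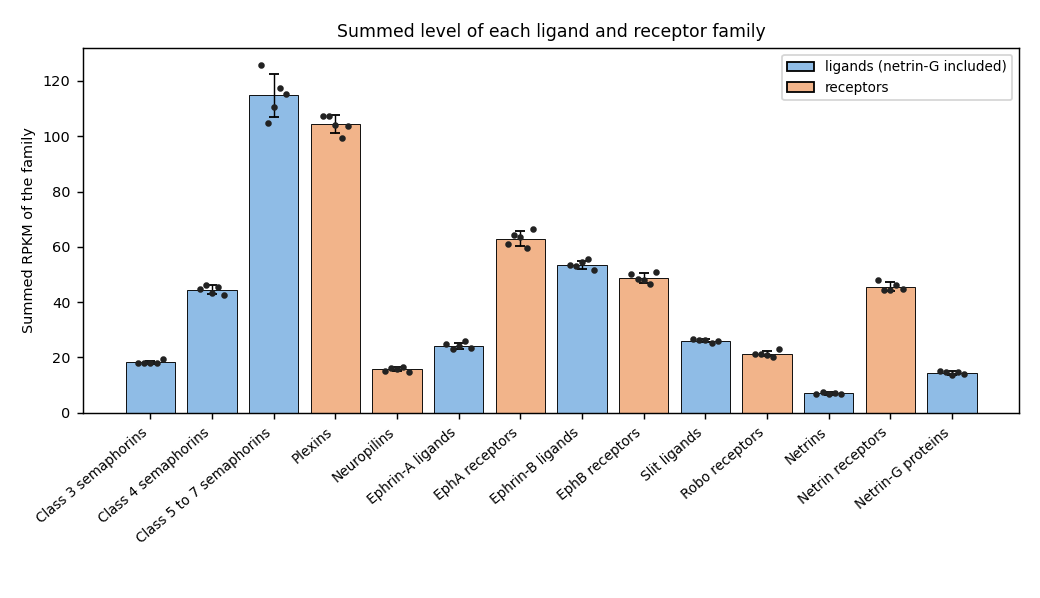
Summed RPKM of each family as bars (mean over 5 animals, error bars SD), with points for animals 1 to 5 from left to right, ligands in blue and receptors in orange. Class 5 to 7 semaphorins (115 RPKM) and plexins (104 RPKM) were highest and netrins (6.93 RPKM) lowest.

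Pairs of related genes, chosen with earlier results of these data known, were compared within each animal as log2 ratios of RPKM plus 0.1. The ratio kept its sign in every animal for 17 of 19 pairs, a count that describes these pairs only. For each, the exact sign-flip test (two-sided) gave its smallest possible value with 5 animals, p = 0.0625 (0.0699 after Benjamini-Hochberg adjustment over the 19 pairs), so no pair can pass 0.05. Unc5a exceeded Unc5c by 8.87-fold (log2 ratio 3.15 ± 0.19), Slit1 exceeded Slit2 by 7.61-fold (2.93 ± 0.14) and Ephb6 exceeded Ephb3 by 7.41-fold (2.89 ± 0.14). The ligand Sema7a was 5.79-fold above its receptor gene Plxnc1, with log2 ratios of 2.80, 2.20, 2.49, 2.66 and 2.51 in animals 1 to 5. Efnb3 exceeded Efnb2 by 4.43-fold and Epha4 exceeded Epha5 by 3.40-fold. Ephb2 lay below Ephb1 by 5.35-fold and Sema3a below Sema3f by 1.79-fold. Small differences also kept their sign, such as Plxna4 over Plxna1 (log2 ratio 0.054 ± 0.020) and Plxnb1 over Plxnb2 (0.14 ± 0.057). Robo2 against Robo1 (2 of 5 animals higher, mean log2 ratio -0.013 ± 0.053) and Ntng1 against Ntng2 (3 of 5 animals, 0.023 ± 0.13) were the 2 pairs without a constant sign, both with an exact p of 0.688. On counts without a length the order turned for Nrp1 against Nrp2 (log2 ratio -0.20), Plxna2 against Plxna1 (0.58), Sema3a against Sema3f (0.55) and Efna3 against Efna5 (-0.28). The larger ratios also shrank without a length, to 0.99 for Unc5a against Unc5c, 0.88 for Slit1 against Slit2, 2.18 for Ephb6 against Ephb3, 1.29 for Sema7a against Plxnc1, 1.05 for Efnb3 against Efnb2, 0.72 for Epha4 against Epha5 and -1.52 for Ephb2 against Ephb1.

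**Figure D3:**
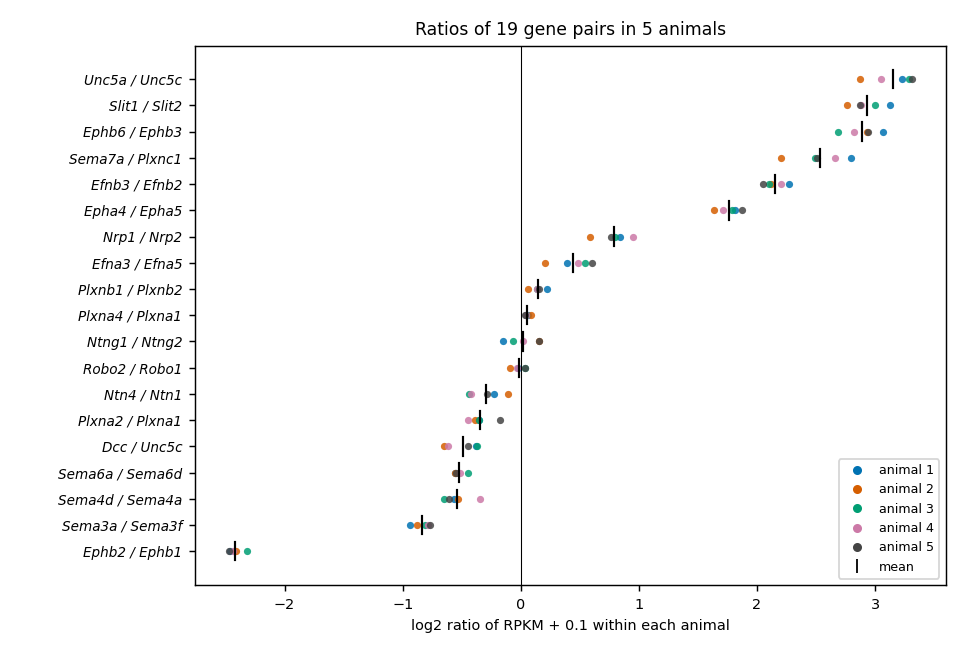
log2 ratio of RPKM plus 0.1 for 19 gene pairs (rows) in the 5 animals (coloured points), with the mean as a black tick and 0 marked by a line. All points of 17 pairs lie on 1 side of the line, while Robo2 / Robo1 and Ntng1 / Ntng2 straddle it.

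Between animals the guidance genes had a median range like that of other genes, while other measures of spread differed. Low counts left 67 of the 70 genes in the test (Efna4, Epha1 and Ntn5 were removed). Their median range over the animals was 1.19-fold, equal at this precision to that of all 14770 genes tested, and 10 of the 67 (14.9%) ranged over more than 1.3-fold, against 28.7% of all genes tested. These ranges are not adjusted for abundance. Relative to the trend for abundance the median dispersion ratio was 1.02 in the set and 0.875 over all genes tested. The largest dispersion ratios in the set were 8.29 for Sema7a and 6.45 for Robo3. No gene of the set was called more variable than genes of like abundance in edgeR's quasi-likelihood fit. These calls were made after Benjamini-Hochberg adjustment over all genes (0 of 67, where 0.305% of all genes were called). At an unadjusted p under 0.05 there were 6 of 67 (8.96%), against a background of 5.43%. Called genes of the set numbered 0 with limma on recomputed RPKM (0.0677% of all genes tested), 0 with limma on deposited RPKM (0.183%) and 1, Sema7a, as a DESeq2 dispersion outlier (0.684% of all genes tested). None was called steadier than the trend either (0.0% of all genes), with 1 gene, Ephb2, at an unadjusted p under 0.05 (background 5.0%). Its range over the animals was 1.05-fold (adjusted p = 0.981 in edgeR).

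Sema7a had the smallest p, with a range of 1.4-fold between animals 1 and 2 (adjusted p = 0.168 in edgeR). Without animal 2 its range was 1.18-fold and without animal 1 1.27-fold. When no low-count filter was applied, Sema7a (adjusted p = 0.000662) and Robo3 (adjusted p = 0.0144) were called in edgeR, in a fit that called 0.881% of all genes. In the same animals the striatal list (6 of 6 genes at 1 RPKM or more, summing to 276 to 345 RPKM) was highest in animal 1, with a mean log2 deviation of 0.25. The inhibitory neuron list (6 of 6, 433 to 493 RPKM) was lowest in animal 2 (-0.11), where the long nuclear RNAs (7 of 8, 284 to 355 RPKM), a sign of library quality, were highest (0.18). General (-0.070) and excitatory neuron markers (-0.068) were also lowest in animal 2, and those of meningeal fibroblasts (6 of 6, 20.8 to 24.8 RPKM) had their highest deviation in animal 1 (0.12) with animal 2 at the other end (-0.15). Other lists had negative deviations in animal 1 and positive ones in animal 2. Among them were brainstem and spinal cord (3 of 6, 1.77 to 9.29 RPKM), at -0.67 and 0.66. Olfactory bulb and immature neurons (2 of 6, 8.98 to 12.95 RPKM) had -0.17 and 0.26. Oligodendrocyte precursors (6 of 6, 22.4 to 25.7 RPKM) had -0.099 and 0.078. The part of any of these lists in the level of Sema7a was not tested. Sema6b showed the same highest and lowest animal (1.24-fold, adjusted p = 0.911 in edgeR), as did Unc5a (1.22-fold, adjusted p = 0.956).

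Robo3 came next, with its highest level in animal 5 and its lowest in animal 4 (1.63-fold, adjusted p = 0.298 in edgeR). Leaving out animal 4 reduced its range to 1.3-fold. The brainstem and spinal cord list (3 of 6 genes at 1 RPKM or more, summing to 1.77 to 9.29 RPKM) ran the opposite way in these animals, with mean log2 deviations of 1.24 in animal 4 and -1.21 in animal 5. Its part in the level of Robo3 was not tested. Unc5d was highest in animal 2 and lowest in animal 3 (1.31-fold, adjusted p = 0.772), whereas Plxnd1 was highest in animal 1 and lowest in animal 4 (1.26-fold, adjusted p = 0.837 in edgeR). The 10 genes with the smallest p thus did not share 1 high or 1 low animal.

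**Figure D4:**
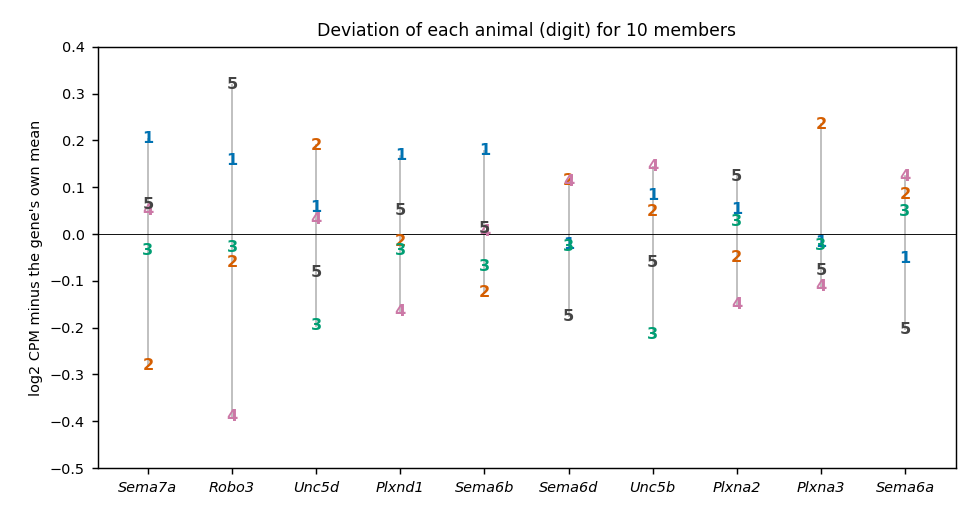
Deviation of TMM-scaled log2 CPM from the gene's own mean (vertical axis) for the 10 genes with the smallest unadjusted p for variability (horizontal axis), where each digit is an animal. Animal 1 is highest and animal 2 lowest for Sema7a and Sema6b, while Robo3 runs from animal 4 to animal 5.

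Counted over the 67 genes, animal 1 was highest for 20 (29.9%, against 21.0% of all genes tested) and animal 5 lowest for 21 (31.3%, against 23.0%). The median log2 deviation of the genes ran from 0.036 in animal 1 to -0.026 in animal 5, small next to the distances between genes.

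Partners of the pathways outside the set were measured with lists of effectors and coreceptors. Of 78 such genes, 76 reached 1 RPKM and 77 were tested, of which none was called more variable or steadier by edgeR, with 6 at an unadjusted p under 0.05 for higher variability. Of all genes tested, 0.305% were called more variable, 0.0% steadier, and 5.43% had such a p. Their median level was 14.7 RPKM. Among the collapsin response mediators, which carry semaphorin signals to microtubules, Dpysl2 stood at 86.1 ± 2.94 RPKM and Crmp1 at 28.2 ± 0.690. The semaphorin effector list was led by the actin-severing cofilin gene Cfl1 (238 ± 7.43) and the kinase gene Pak1 (130 ± 4.23). Of the Eph effectors, the Rac regulator gene Chn1 reached 108 ± 6.62 and Ngef, which encodes the exchange factor ephexin, 92.9 ± 6.92. Srgap3 (47.4 ± 1.76) and Evl (35.9 ± 1.09) led the Slit-Robo effectors, which act on actin. Cdc42 (71.7 ± 1.4) and Rac1 (31.3 ± 0.464), small GTPases used by several of these pathways, led the netrin list. Neo1, a Dcc relative that binds netrins and repulsive guidance molecules, stood at 22.1 ± 0.938 and thus far above Dcc. The netrin-G ligand gene Lrrc4c, partner of Ntng1, had 28.4 ± 0.841 RPKM, Lrrc4, partner of Ntng2, 27.2 ± 1.05, and their relative Lrrc4b 57.7 ± 4.66. Rtn4, which encodes the growth inhibitor Nogo, reached 107 ± 3.33 and Lingo1, part of its receptor complex, 71.5 ± 3.69.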

How the data were processed

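Per the labels, mRNA libraries were made from 5 samples. CASAVA 1.7, STAR 2.4.1d, featureCounts 1.4.6-p4 and build GRCm38 are named in the submitters' processing notes, whereas for strand setting, annotation release and multiply mapped reads the setting is not given in the sources used here. Counts, in the deposited table, are whole numbers per Ensembl gene, neither normalized nor pooled. The deposited RPKM values were made by the authors from these counts with the library totals applied in turn down the rows, as the values show: all 117232 nonzero entries were recovered this way (100.0%, tolerance 0.0011 RPKM plus a relative 0.0002) and 21.2% with own totals. RPKM was therefore recomputed with own totals and the gene length recovered from both tables, which lies within 10% of the union of annotated exons for 61 of the 70 genes.

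Symbols and positions were taken from GENCODE M21 (GRCm38) for 47310 genes, and promoters from RefSeq (GRCm38.p6). Ntn3 was not analysed here. Variability was fitted on all genes in R 4.3.3 by the robust glmQLFit of edgeR 4.0.16, with an intercept only, after filterByExpr and TMM scaling. The quasi-dispersion of a gene over the trend for its abundance was tested against F with 4 and 15.3 degrees of freedom, separately for high and low values. P-values were adjusted by Benjamini-Hochberg over 14770 genes, with a threshold of 0.05. The test was also run on simulated counts for these 14770 genes. Genes changed in 1 library by 1.5-fold, 2-fold and 4-fold were called in 61.2%, 82.1% and 95.5% of cases, with 7 false calls. Each simulated gene had exactly the dispersion of the trend, without the spread of real genes around it. These shares therefore do not give the power of the test for real genes. Range folds come from log2 CPM after TMM scaling (prior count 2). Alternatives were DESeq2 1.42.0 size factors and dispersion outliers, no filter, a prior that is not robust, limma 3.58.1 on log2 of RPKM plus 0.1, other lengths and added values, and leaving out each library. Values in every library are given for the 3 highest genes of each family, the 10 with the smallest p for variability and the genes of the pairs, and for the pathway lists the 2 highest genes. Neo1, Lrrc4 and others outside this rule were named after their values were seen. The genes, lists and pairs were chosen with earlier results of these data known, and the list of long nuclear RNAs was added after the tables were seen. The reads carry no molecular identifiers, and depth speaks for counting error alone.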

Additional observations from a re-analysis of the deposited data

Results flagged for a closer look

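Of 103 levels, family sums and pair ratios examined, 7 had 1 animal set apart from the other animals by more than 0.71 of their whole range, where chance sets apart about 1 in 20. Animal 2 was high for Plxna3 (5.82 RPKM, others 4.51 to 4.80) and Plxnb2 (13.9, others 12.3 to 12.7) and low for Efna3 (9.74, others 11.2 to 11.7). Animal 4 was high for Efna1 (2.77 RPKM, others 1.91 to 2.12). Animal 5 was low for Robo4 (1.81 RPKM, others 2.19 to 2.32) and high for Robo2 (8.62, others 7.63 to 7.80). The summed class 3 semaphorins reached 19.4 RPKM in animal 5 and 17.8 to 18.0 in the others. No single class 3 gene was set apart in that animal.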

How the results depend on the processing

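No paired analysis was possible because there is only 1 group, which leaves no second group to pair samples with. The number of genes called more variable, 0, became 2 (Robo3 and Sema7a) with no low-count filter and 1 (Sema7a) as DESeq2 dispersion outliers, and stayed 0 in the other alternatives, also without any 1 animal (0.121% to 0.298% of all genes called). The cause was not tested. The ratio to the trend fell below 1 with limma on deposited RPKM for Plxnd1 (adjusted p = 0.973), Sema6b (1.0) and Plxna2 (0.972). With 1 animal left out the adjusted p in edgeR was 0.816 to 0.996 for Unc5b, whose ratio fell below 1 without animal 3, and 0.852 to 0.997 for Plxna3, whose ratio did so without animal 2. The number of genes of at least 1 RPKM was 65 to 66 without any 1 animal and 60 at a threshold of 2. Of the 19 gene pairs, 16 to 19 had a constant sign under every alternative, but not always the same pairs: with the length of all annotated exons Nrp1 to Nrp2 lost it (0.070) and Robo2 to Robo1 gained it, and on deposited RPKM Plxnb1 to Plxnb2 lost it (0.14 ± 0.18). The mean log2 ratio of Robo2 to Robo1 turned to 1.05 with the length of all annotated exons, 1.11 on counts without length and 0.0059 without animal 2 (-0.0265 to 0.0059 with 1 animal left out). That of Ntng1 to Ntng2 turned to -0.0093 without animal 2 and -0.011 without animal 5 (-0.011 to 0.0654). Without length, it turned to -0.20 for Nrp1 to Nrp2, 0.58 for Plxna2 to Plxna1, 0.55 for Sema3a to Sema3f and -0.28 for Efna3 to Efna5. With the length of all annotated exons, 11 of 70 mean levels moved by more than their SD, among them Sema4g (8.36 to 4.70 RPKM), Sema5a (7.12 to 4.12), Dcc (2.01 to 1.23) and Epha3 (1.80 to 1.18). Depth limits Efna4, Epha1 and Ntn5, with at most 20 reads in any library.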
